A study of Mus musculus with 5 samples.

Results

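Transcript levels of the VEGF ligand genes Vegfa, Vegfb, Vegfc and Pgf and of the neuropilin genes Nrp1 and Nrp2 were compared between tumor and lung libraries of mouse cells labelled PMN-MDSC. These 6 genes were taken by symbol from a table of 55250 genes. The cells are primary, wild type in both groups and sorted, with 3 libraries from lung (replicates 1, 2 and 3) and 2 from tumor (replicates 2 and 3). PMN-MDSCs, polymorphonuclear myeloid-derived suppressor cells, resemble neutrophils, dampen T cell responses and gather in hosts with tumors. The sources used here give no strain, age, tumor model or sort markers, and they do not say whether the lung donors carried tumors or whether each library is a separate animal. P-values therefore weigh each difference only against the scatter among these libraries, and that scatter may be technical.

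The VEGF family are secreted, disulfide-linked growth factor dimers that drive the growth and leakiness of blood and lymph vessels. VEGF-A signals through the receptor tyrosine kinases VEGFR1 and VEGFR2, VEGF-B and PlGF bind VEGFR1, and VEGF-C binds VEGFR3 and, once cleaved, VEGFR2. Neuropilins are receptors without a kinase that bind VEGF forms ending in arginine and pair with plexins to receive class 3 semaphorins. Tumor cells, macrophages and neutrophils are all known to make VEGF-A, whose gene is a textbook target of hypoxia-inducible factors (HIF).

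The tumor libraries carried other transcripts than the PMN-MDSC label gives. A list of 10 neutrophil markers summed to between 34827 and 55656 TPM in lung but to 1006 and 3587 TPM in tumor replicates 2 and 3. TPM is a length-corrected transcript share that totals 1000000 in each library. The sum of 10 pan-leukocyte genes was 13580 to 14839 TPM in lung and 707 and 1924 TPM in tumor, and all 10 fell. A sum of 10 epithelial genes was 19.7 to 72.1 TPM in lung and 5288 and 5258 TPM in tumor, and 9 of them rose. Of 10 fibroblast and pericyte genes 6 rose and 1 fell, with sums of 31.2 to 35.0 TPM in lung and 1269 and 236 TPM in tumor, so the tumor libraries also differed from each other. Among the 6, Pdgfra and Rgs5 had lung means under 1 TPM. They reached the filter for testing, a mean of at least 1 TPM, only through tumor, which fixed the direction of their means. All 10 endothelial genes fell, with sums of 214 to 384 TPM in lung and 19.7 and 35.6 TPM in tumor. Among them Kdr, Tek, Tie1, Emcn and Erg had tumor means under 1 TPM and reached that filter only through lung. The filter thus fixed the direction of their means. Of 10 macrophage and monocyte genes 4 rose and 4 fell, with sums of 699 to 808 TPM in lung and 484 and 1112 TPM in tumor. Rose and fell mean called by the test set out below, which called 31.6% of all tested genes higher and 27.0% lower. The macrophage and monocyte counts lie near those shares. No defining marker of the 10-gene lists of epithelial, fibroblast or macrophage cells was at 0 in any library. The part of these cell types in the differences that follow was not tested. In bulk libraries, fewer cells of a type and less RNA per cell cannot be told apart.

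The promoter sequences of 3 members are shown first, since the 6 genes were higher in the same libraries and the sequence next to the start was not used to choose them. Of the 6 members all had an entry in the RefSeq promoter table (GRCm38.p6), and Vegfa and Pgf had 2 starts, of which the one nearest the 5′ end of the gene was read. The stretches below run 5′ to 3′ on the gene's strand, and stop before the annotated start of the gene. Capitals mark the GC box GGGCGG or its reverse complement.
Vegfa, chr17:46032378-46032627, minus strand: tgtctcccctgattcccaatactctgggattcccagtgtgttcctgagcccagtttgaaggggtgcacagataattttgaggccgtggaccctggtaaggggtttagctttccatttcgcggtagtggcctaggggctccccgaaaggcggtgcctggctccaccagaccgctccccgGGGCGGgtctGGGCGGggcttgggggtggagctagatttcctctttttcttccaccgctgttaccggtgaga
Vegfb, chr19:6987652-6987901, minus strand: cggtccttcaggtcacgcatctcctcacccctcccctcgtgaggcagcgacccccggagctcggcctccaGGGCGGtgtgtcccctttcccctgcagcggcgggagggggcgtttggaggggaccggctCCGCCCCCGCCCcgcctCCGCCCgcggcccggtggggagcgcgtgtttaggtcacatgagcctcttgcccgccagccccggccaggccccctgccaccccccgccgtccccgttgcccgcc
Nrp2, chr1:62703067-62703284, plus strand: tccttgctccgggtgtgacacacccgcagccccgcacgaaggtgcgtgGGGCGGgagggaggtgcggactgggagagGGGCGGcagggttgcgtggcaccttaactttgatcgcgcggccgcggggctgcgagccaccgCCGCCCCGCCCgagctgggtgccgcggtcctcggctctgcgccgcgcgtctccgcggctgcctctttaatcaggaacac
GC boxes are bound by Sp-family factors and are common in promoters without a TATA box. In the 250 bases before the RefSeq start, Vegfa had 2 GC boxes, Vegfb had 4, Vegfc and Pgf each had 2, Nrp1 had 1 and Nrp2 had 5, of which 4 lie in the stretch shown. The RefSeq starts of Pgf and Nrp1 lie 477 and 469 bases inside the annotated gene. Their whole windows therefore lie inside the gene and not before its annotated start. Matches were read on both strands, and the only overlap was 1 pair of GC boxes in Nrp2. A GC box was present in 32.7% of all 32851 promoters of the same length and in 55.8% of the 13076 promoters of tested genes. The hypoxia response core ACGTG was in none of these 6 windows, and in 16.6% of all promoters and 21% of those of tested genes. The window of the second Vegfa start, which lies 7206 bases inside the gene, held 1 such core and 1 GC box, and that of the second Pgf start held neither. The AP-1 sites TGACTCA and TGAGTCA were in none of the 8 windows, and in 4.46% of all promoters and 3.59% of those of tested genes. Such a match is a description of letters and no evidence of binding, and no match says only that the letters are not in this window.

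All 6 genes were higher in tumor. A gene was tested when its mean over the libraries was at least 1 TPM, and called when limma gave an adjusted p under 0.05 (Benjamini-Hochberg over 16387 genes) and tumor and lung lay at least 1.5-fold apart. The 6 members passed that filter, Pgf through its tumor values alone, which fixed the direction of its mean. All 6 were called higher, 5 of them with a lung mean of at least 1 TPM. Of all tested genes 31.6% were called higher, 27.0% lower and 58.6% in either direction. Members were chosen with earlier results of these data known, so their count is a description. In each of the 6, both tumor libraries lay above all lung libraries, as they did for 39.9% of all tested genes, while in 35.7% both lay below. The members' median difference, Pgf included, was 1.92 on the log2(TPM + 1) scale, against 0.018 for all tested genes. Differences below are tumor minus lung on that scale with ± SE, which understates the change of low genes. A fold is the ratio of the group means in TPM. The depth of a single value is unknown, since TPM holds no counts of reads.

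**Figure D1:**
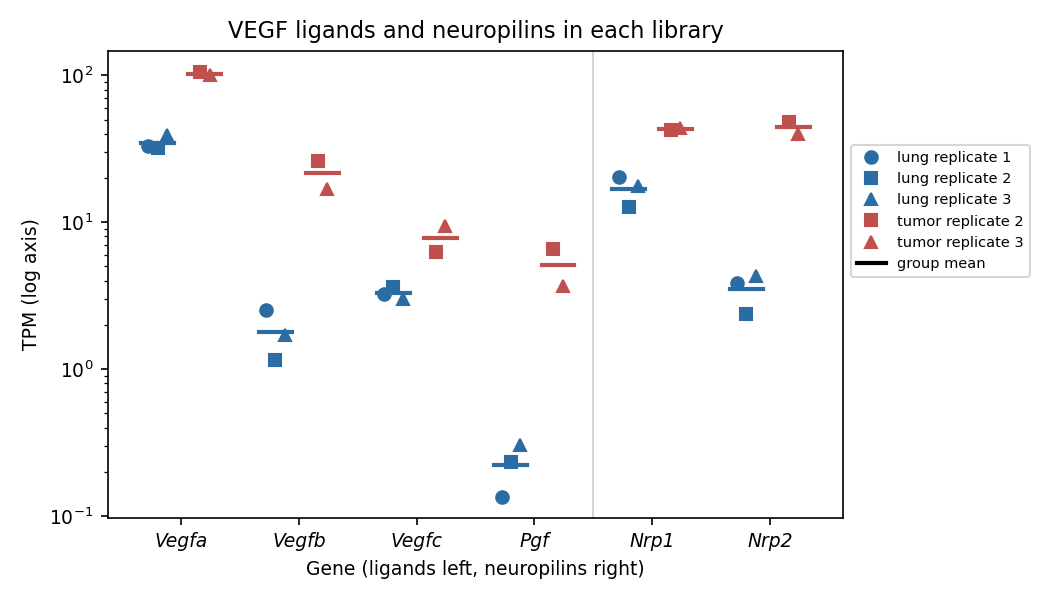
TPM of each gene in each library on a log axis, with lung in blue, tumor in red, symbols for the replicate number and bars for group means. Both tumor points lie above every lung point for all 6 genes, with the narrowest gap in Vegfc and the widest in Pgf.

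Vegfa, which encodes the main angiogenic ligand, was the most abundant of the 6 in both tissues. It was at 33.1, 31.8 and 39.3 TPM in lung replicates 1, 2 and 3 and at 105 and 100.5 TPM in tumor replicates 2 and 3. The libraries of each tissue lay close together, and the lowest tumor value was 2.55 times the highest lung value. The mean rose 2.96-fold, from 34.7 ± 4.01 (SD, n = 3) to 103 ± 3.56 TPM (SD, n = 2), a difference of 1.55 ± 0.16 (limma, adjusted p = 0.0018). In size it was not unusual, since 37.6% of all tested genes had a larger difference in either direction.

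Vegfb, whose product binds VEGFR1 and is known for roles in heart muscle and fat uptake, showed the larger relative rise. Its levels were 2.54, 1.16 and 1.70 TPM in lung and 26.3 and 16.9 TPM in tumor. Tumor replicate 2 was the higher of the pair, and the lowest tumor value was 6.63 times the highest lung value. Mean Vegfb rose 12.0-fold, from 1.80 ± 0.699 to 21.6 ± 6.65 TPM, a difference of 3.01 ± 0.32 (limma, adjusted p = 0.00184). A larger difference was found for 9.91% of tested genes.

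Pgf, which encodes placental growth factor, went from near the bottom of the scale to a low level. It was at 0.135, 0.232 and 0.303 TPM in lung and at 6.60 and 3.70 TPM in tumor. All lung values were under 1 TPM, so Pgf reached the filter only because its tumor values are high. Its means were 0.224 ± 0.0841 and 5.15 ± 2.05 TPM, with a difference of 2.29 ± 0.32 (limma, adjusted p = 0.00365). The ratio of means was 23.0, and it rests on lung values where TPM is least certain. With a pseudocount of 0.01 the difference was 4.48, and no value is given at a filter of 5 TPM, which Pgf does not reach.

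Vegfc, the lymphatic ligand, changed least. Levels were 3.25, 3.61 and 3.02 TPM in lung and 6.24 and 9.49 TPM in tumor. The lung values were tight and the tumor values were not, and here replicate 3 was the higher of the pair, the reverse of Vegfb and Pgf. The mean rose 2.39-fold, from 3.29 ± 0.294 to 7.87 ± 2.30 TPM, a difference of 1.02 ± 0.23 (limma, adjusted p = 0.0159). Of all tested genes 58.9% moved further. The call ended without lung replicate 1 (1.02, adjusted p = 0.0557), without lung replicate 3 (0.98, adjusted p = 0.0661) and without tumor replicate 3 (0.76, adjusted p = 0.0881). Vegfd, the other lymphatic ligand, was at 0.154, 0.435 and 0.759 TPM in lung and at 3.52 and 0.387 TPM in tumor, groups that overlap (adjusted p = 0.285). Vegfd is named because it belongs to the ligand family, not for its value.

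The neuropilin genes both rose, and Nrp2 by far more. Nrp1 encodes the co-receptor of VEGF-A and semaphorin 3A, found on endothelium, neurons, plasmacytoid dendritic cells and some T cells. It was at 20.5, 12.7 and 17.6 TPM in lung and at 42.3 and 43.9 TPM in tumor. The lung values varied 1.61-fold among themselves while the tumor values nearly coincided, and the lowest tumor value was 2.07 times the highest lung value. The mean rose 2.54-fold, from 16.9 ± 3.90 to 43.1 ± 1.13 TPM, a difference of 1.32 ± 0.23 (limma, adjusted p = 0.00694). The call ended without either tumor library, at adjusted p = 0.0556 and 0.0509 without replicates 2 and 3, though the difference stayed at 1.35 and 1.30.

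Nrp2 encodes the co-receptor of VEGF-C and semaphorin 3F and marks lymphatic endothelium and some carcinoma cells. Its levels were 3.83, 2.38 and 4.28 TPM in lung and 48.3 and 40.2 TPM in tumor. The lowest tumor value was 9.39 times the highest lung value. The mean rose 12.6-fold, from 3.50 ± 0.993 to 44.2 ± 5.74 TPM, a difference of 3.35 ± 0.26 (limma, adjusted p = 0.00121). Of all tested genes 7.18% had a larger difference, so Nrp2 moved furthest of the 6 on this scale.

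Markers of cells known to carry neuropilins moved in different directions. Of 10 plasmacytoid dendritic cell and T cell markers 5 were tested, 2 rose (Bst2 and Tcf4) and 1 fell (Cd3g), with sums of 40.2 to 56.8 TPM in lung and 112 and 92.9 TPM in tumor. These counts lie near the shares of all tested genes, 31.6% called higher and 27.0% lower. Cd3g had a tumor mean of 0.0687 TPM and reached the filter only through lung, which fixed the direction of its mean. Bst2 made up 63.6 and 62.5 TPM and Tcf4 43.6 and 27.1 TPM of the tumor sums, and both are made by many cell types. Siglech, a defining gene of plasmacytoid dendritic cells, was at 0.802 to 1.35 TPM in lung and at 0.0582 and 0.286 TPM in tumor. Cd3d, Cd3e, Foxp3 and Ccr9 were also under the filter. Their means were 1.34, 0.934, 0.408 and 0.578 TPM in lung and 0.254, 0.136, 0.0902 and 0.0854 TPM in tumor. Tested but not called, Trac had a lower mean in tumor (2.43 and 0.671 TPM) and Cd4 a higher one (1.21 and 2.52 TPM). The part of these cells in the rise of Nrp1 was not tested.

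The order of the genes by level changed between tissues. In lung it was Vegfa, Nrp1, Nrp2, Vegfc, Vegfb and Pgf, and Nrp2 and Vegfc overlapped. In tumor it was Vegfa, Nrp2, Nrp1, Vegfb, Vegfc and Pgf. The tumor values of Nrp2 and Nrp1 overlapped, as did those of Vegfc and Pgf.

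Shares within a library do not move with how the library is scaled. Vegfa made up 84.8%, 86.4% and 88.7% of the summed TPM of the 4 ligands in lung and 73.0% and 77.0% in tumor. Its mean share went from 86.6% ± 1.94 to 75.0% ± 2.84 (SD, n = 3 and 2), so it remained the main ligand transcript. Vegfb took 6.52%, 3.14% and 3.83% in lung and 18.2% and 12.9% in tumor. Pgf took 0.347% to 0.684% in lung and 4.56% and 2.84% in tumor. Neither Vegfa, Vegfb nor Pgf shares overlapped between tissues, and each gave an exact permutation p of 0.1 (two-sided), the smallest that 10 splits of 3 against 2 libraries allow. Vegfc took 6.82% to 9.80% in lung and 4.32% and 7.27% in tumor, which overlap (exact permutation p = 0.3). The summed TPM of the ligands was 36.8 to 44.3 in lung and 145 and 131 in tumor.

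Nrp1 and Nrp2 went from an unequal to a nearly equal mix. Nrp2 was 15.8%, 15.7% and 19.6% of neuropilin TPM in lung and 53.3% and 47.8% in tumor. The mean share rose by 33.5 percentage points, from 17.0% ± 2.20 to 50.6% ± 3.90, without overlap (exact permutation p = 0.1, the smallest possible). Over the 6 shares computed, the adjusted p was 0.12 for all but Vegfc (0.3), so no share passed the correction, which this design cannot reach. Leaving out any 1 library kept the difference in Nrp1 share between -30.8 and -36.3 points.

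**Figure D2:**
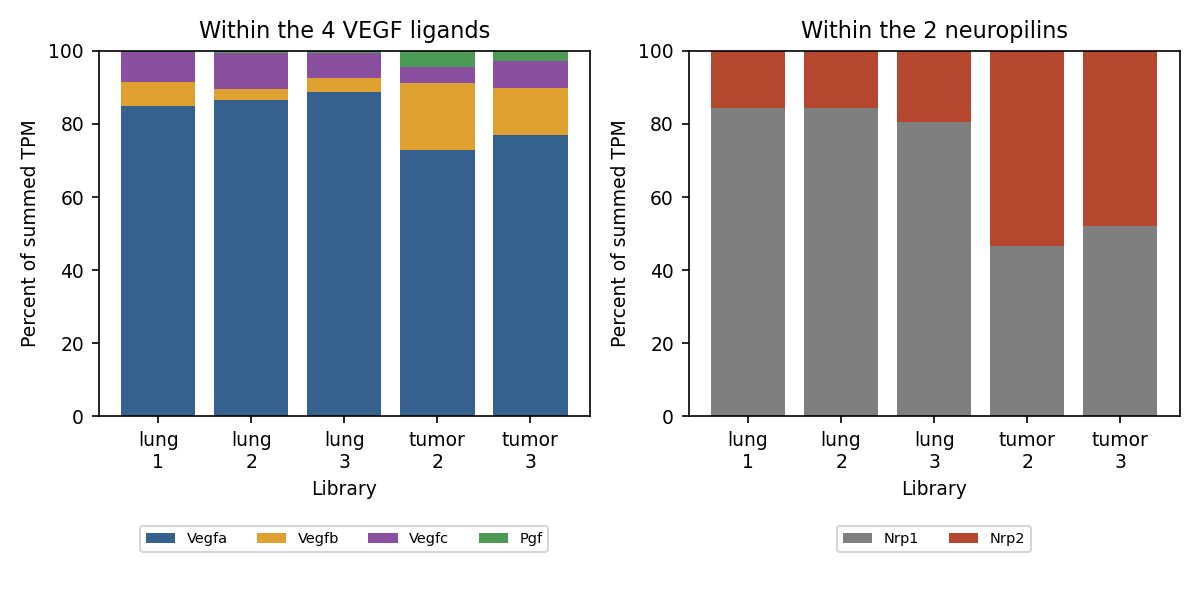
Percent of the summed TPM held by each gene within the 4 VEGF ligands (left) and the 2 neuropilins (right), 1 bar per library. Vegfa holds at least 73.0% of ligand TPM in every library, and Nrp2 goes from at most 19.6% in lung to 47.8% or more in tumor.

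The receptor genes did not follow the ligands. Kdr, which encodes VEGFR2, the main signalling receptor on endothelium, was at 15.9, 7.76 and 11.9 TPM in lung and at 0.412 and 0.782 TPM in tumor. Every lung value was above both tumor values, and the mean was 19.8-fold lower in tumor (-2.97 ± 0.34, limma, adjusted p = 0.00215). Kdr reached the filter only through lung, and its fold rests on tumor values under 1 TPM. Flt1, which encodes VEGFR1 and its soluble decoy form, was at 17.8, 13.8 and 18.8 TPM in lung and at 10.8 and 6.40 TPM in tumor. Its mean was 1.96-fold lower (-0.92 ± 0.27, limma, adjusted p = 0.0347), and the call ended without any single lung library and without tumor replicate 3, among 7 settings with adjusted p from 0.0585 to 0.168. Flt4, the VEGF-C receptor gene, was at 0.919 to 1.99 TPM in lung and at 1.12 and 0.995 TPM in tumor (-0.27, adjusted p = 0.485). Kdr is itself 1 of the 10 endothelial genes that all fell, some of which reached the filter only through lung. These directions are relative to all transcripts. Centred on leukocyte genes, which shifts the median gene by 3.57, the differences were 0.60 for Kdr, 2.64 for Flt1 and 3.30 for Flt4. Kdr was not called there, and relative to the median gene they stood at -2.98, -0.94 and -0.28.

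Ligand and receptor transcripts were thus in different proportion in the tissues. The level of Vegfa was 2.08, 4.10 and 3.31 times that of Kdr in lung, and 256 and 128 times in tumor. Against Flt1 it was 1.86, 2.30 and 2.09 times in lung and 9.81 and 15.7 times in tumor. Neither ratio overlapped between tissues. That was fixed by the values above, since both tumor libraries lay above all lung libraries for Vegfa and below them for Kdr and Flt1. The ratios are therefore a description. Both ratios divide by transcripts that fell, and the Kdr ratios in tumor rest on values under 1 TPM.

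Class 3 semaphorins are the other ligands of neuropilins. Of 7 genes 5 rose and 1, Sema3g, fell, with a median of 2.30, the value of Sema3e. Over all tested genes 31.6% were called higher and 27.0% lower. Centred on leukocyte genes, Sema3g stood at 0.37 and was not called. Of the 5, Sema3a, Sema3d and Sema3e had lung means under 1 TPM and reached the filter only through tumor, and Sema3g reached it only through lung. The filter fixed the direction of the means of these 4, so their count is a description. The 2 called higher with a lung mean of at least 1 TPM were Sema3b and Sema3c. Sema3a, the repulsive axon guidance ligand of NRP1, was at 0.281, 1.84 and 0.324 TPM in lung and at 36.1 and 24.1 TPM in tumor (4.17 ± 0.44, limma, adjusted p = 0.00187). Lung replicate 2 stood above the other lung libraries, yet far under both tumor libraries. Sema3d went from a mean of 0.268 to 13.3 TPM (3.50), Sema3b from 2.56 to 24.7 TPM (2.83) and Sema3e, which binds plexin D1 without a neuropilin, from 0.657 to 7.14 TPM (2.30). Sema3c rose from 24.4 to 57.9 TPM (1.30, adjusted p = 0.0288), a call that ended in 6 settings, without lung replicates 2 or 3 and without either tumor library among them (adjusted p from 0.0551 to 0.146).

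Sema3f and Sema3g, whose products bind mainly NRP2, were not called higher. Sema3f was at 29.2, 19.9 and 18.9 TPM in lung and at 26.3 and 25.1 TPM in tumor, where the groups overlap (0.20, adjusted p = 0.489). Sema3g, an endothelial semaphorin gene, was at 12.9, 6.80 and 8.84 TPM in lung and at 0.0221 and 0.228 TPM in tumor. Its mean was 76.1-fold lower, a ratio that rests on tumor values near 0 (-3.19 ± 0.31, limma, adjusted p = 0.00166). Centred on leukocyte genes Sema3g stood at 0.37, or -3.21 relative to the median gene. In lung Sema3c and Sema3f were the most abundant of the 7, at means of 24.4 and 22.7 TPM. In tumor the highest means were those of Sema3c, Sema3a, Sema3f and Sema3b, at 57.9, 30.1, 25.7 and 24.7 TPM.

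Plexins are the signalling chains of neuropilins for semaphorins. Of 5 plexin genes 4 were tested, and 3 rose, of which Plxna2 and Plxna3 had lung means under 1 TPM and reached the filter only through tumor. Among all tested genes 31.6% were called higher and 27.0% lower. Plxna1 went from 7.61, 8.24 and 5.85 TPM in lung to 28.2 and 23.6 TPM in tumor (1.71 ± 0.21, limma, adjusted p = 0.00245). Plxna3, a signalling partner of NRP2, went from 0.557, 0.0926 and 0.678 TPM to 9.21 and 8.71 TPM (2.81 ± 0.29, limma, adjusted p = 0.00175). Plxna2 rose from a mean of 0.600 to 1.96 TPM (0.89, adjusted p = 0.0459), and lost its call in 4 settings (adjusted p from 0.0505 to 0.117). Plxnd1, the semaphorin 3E receptor of endothelium, was at 15.4 to 19.9 TPM in lung and at 10.04 and 14.7 TPM in tumor (-0.51, limma, adjusted p = 0.111). Centred on leukocyte genes Plxnd1 stood at 3.05, or -0.53 relative to the median gene. Plxna4, under the filter, was at 0.204 to 0.399 TPM in lung and at 0.353 and 0.558 TPM in tumor.

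**Figure D3:**
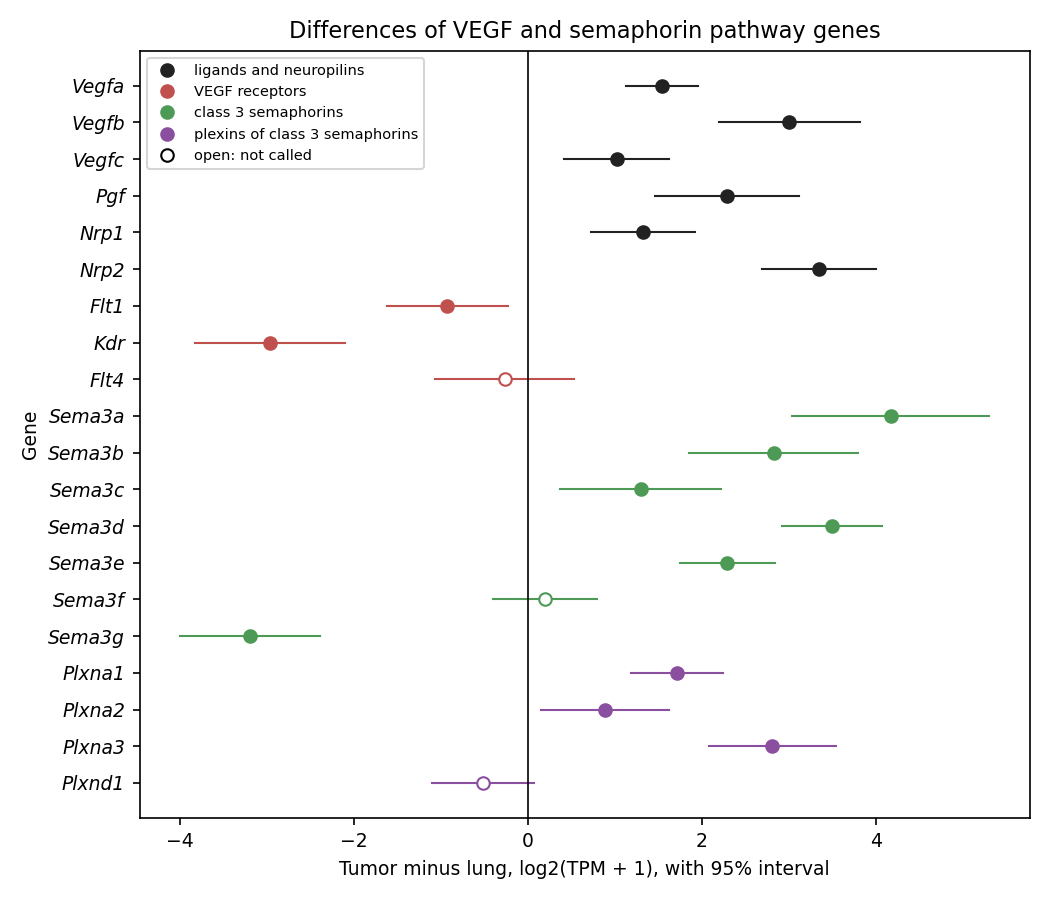
Tumor minus lung differences on the log2(TPM + 1) scale with 95% limma intervals for the VEGF ligands and neuropilins, VEGF receptors, class 3 semaphorins and their plexins. Filled points were called. The 6 ligand and neuropilin points lie right of 0, between 1.02 for Vegfc and 3.35 for Nrp2. Kdr, Flt1 and Sema3g (called) and Flt4 and Plxnd1 (not called) lie left of 0. Centred on leukocyte genes, Kdr, Flt1 and Sema3g were above 0 but below the median gene, and Kdr and Sema3g were not called.

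Genes that process or release VEGF proteins went both ways. Of 8 genes 6 were tested, 2 rose (Ccbe1 and Adamts1) and 3 fell (Mmp9, Pcsk7 and Furin), with a median of -0.56. The 2 of 6 called higher lie near the 31.6% of all tested genes, where 27.0% were called lower. Mmp9, Pcsk7 and Furin were above 0 when centred on leukocyte genes, and Mmp9 was not called there. Ccbe1, which encodes the scaffold that lets ADAMTS3 cleave VEGF-C, was at 0.222, 0.350 and 0.298 TPM in lung and at 14.2 and 14.4 TPM in tumor (3.57 ± 0.21, limma, adjusted p = 0.000901). Like Pgf it passed the filter through its tumor values. Adamts3 itself was under the filter, at 0.0123 to 0.429 TPM in lung and at 0.952 and 0.368 TPM in tumor. Mmp9, the neutrophil gelatinase that frees matrix-bound VEGF-A, was at 982 to 1049 TPM in lung and at 75.7 and 201 TPM in tumor (-3.04 ± 0.42, limma, adjusted p = 0.00358), alongside the neutrophil sums given above. Pcsk7 and Furin, proprotein convertase genes, had means of 36.3 and 217 TPM in lung and of 13.3 and 117 TPM in tumor (-1.38 and -0.87). The Furin and Adamts1 calls each ended in 9 or more of 16 settings (adjusted p from 0.0574 to 0.232 and from 0.0564 to 0.254). Centred on leukocyte genes, Mmp9, Pcsk7 and Furin stood at 0.53, 2.19 and 2.69, or -3.05, -1.39 and -0.89 relative to the median gene.

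Other targets of hypoxia-inducible factors were measured beside Vegfa. Of 12 listed genes 11 were tested, 9 rose and 0 fell, with a median of 1.40. For all tested genes the shares were 31.6% called higher and 27.0% lower, with a median of 0.018. Ero1l, an oxidase of the endoplasmic reticulum, went from 39.8, 57.5 and 47.8 TPM in lung to 172 and 227 TPM in tumor (2.02 ± 0.23, limma, adjusted p = 0.00213). Ldha, which encodes lactate dehydrogenase A, rose from a mean of 511 to 1675 TPM (1.72), P4ha1, a collagen prolyl hydroxylase gene, from 21.1 to 60.3 TPM (1.48), and Car9, a carbonic anhydrase gene that reached the filter only through tumor, from 0.343 to 2.94 TPM (1.54). Slc2a1, the glucose transporter gene, was at 183 to 209 TPM in lung and at 180 and 216 TPM in tumor (0.021, adjusted p = 0.917). Ankrd37 also was not called (14.9 and 15.9 TPM, adjusted p = 0.716). Both are named because they are the members not called. Without tumor replicate 2 the count of higher genes in this list was 5.

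Among 15 other angiogenic ligands 13 were tested, 7 rose and 2 fell (both above 0 when centred on leukocyte genes), with a median of 1.37. Calls over all tested genes were 31.6% higher and 27.0% lower. Of the 13, Vegfd, Angpt2, Fgf2 and Pdgfd had lung means under 1 TPM, and of these 4 only Fgf2 was called. Pdgfa, a platelet-derived growth factor gene, went from 4.21, 1.40 and 2.60 TPM in lung to 51.3 and 40.0 TPM in tumor (3.70 ± 0.37, limma, adjusted p = 0.00169). Pdgfc rose from a mean of 1.08 to 8.96 TPM (2.25) and Jag1, a Notch ligand gene, from 3.98 to 18.7 TPM (1.99). Hgf, the hepatocyte growth factor gene, was at 8.92 to 9.61 TPM in lung and at 0.591 and 1.70 TPM in tumor (-2.31 ± 0.28, limma, adjusted p = 0.00247). Prok2, which encodes Bv8, an angiogenic factor of neutrophils, was at 44.0, 40.0 and 23.1 TPM in lung and at 4.93 and 9.79 TPM in tumor (-2.15 ± 0.40, limma, adjusted p = 0.00814). It was named after its values were seen, as the second of the 2 that fell, and leaving out tumor replicate 2 ended its call (adjusted p = 0.0668). Centred on leukocyte genes, Hgf and Prok2 stood at 1.26 and 1.42, or -2.33 and -2.17 relative to the median gene. Hgf was not called there.

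Profiles most like each member were sought among 11870 other protein-coding genes, by Euclidean distance between mean-centred log2(TPM + 1) values over the 5 libraries. The nearest to Vegfa were Ska1, Tbl2 and Glt28d2 (distances 0.11, 0.12 and 0.12), and 898 genes lay within 0.5. For Vegfb they were Arl2, Ntn1 and Pebp1 (0.14, 0.15 and 0.24), and 125 genes lay within 0.5. Vegfc was nearest to Celsr2, Agk and Zbtb25 (0.17, 0.20 and 0.22), and Pgf to Ndc1, Tnpo2 and Pcgf2 (0.13, 0.15 and 0.21). Nrp1 was nearest to Fam3c, Erg28 and Ecd (0.085, 0.095 and 0.10), and Nrp2 to Cacnb3, Tmtc4 and Ppa1 (0.16, 0.16 and 0.18), with 740 and 72 genes within 0.5. With 5 libraries in 2 groups such closeness is common. The scale understates the change of low genes, so near profiles can differ in fold. Ska1, nearest to Vegfa, was at 0.153 to 0.383 TPM in lung and at 2.71 and 2.40 TPM in tumor. Among the members themselves, Vegfa lay closest to Nrp1 (0.51) and Vegfb to Nrp2 (0.58), whereas Vegfc and Nrp2 were farthest apart (2.68).

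In GRCm38, by GENCODE M21, Vegfa lies on chromosome 17 (46016993 to 46032369, minus strand) and Vegfb on chromosome 19 (6982473 to 6987651, minus strand). Vegfc is on chromosome 8 (54077606 to 54187096, plus strand) and Pgf on chromosome 12 (85166635 to 85177790, minus strand). Nrp1 is also on chromosome 8 (128358604 to 128503363, plus strand), and Nrp2 is on chromosome 1 (62703285 to 62818695, plus strand). That annotation holds 13 transcripts of Vegfa, 8 of them protein-coding, and 7 of Nrp2, 6 of them protein-coding. The table gives 1 value per gene, so splice forms that differ in heparin or neuropilin binding, and soluble receptor forms, are not separated.

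In the authors' deposited table none of the 6 genes passed a false discovery rate of 0.05. Its adjusted p-values were 0.0598 for Vegfa, 0.0882 for Nrp1, 0.232 for Nrp2, 0.345 for Vegfb, 0.384 for Pgf and 0.410 for Vegfc, and 223 of 34956 rows were under 0.05 in that table. The deposited p-values of the 6 genes match an unequal-variance comparison of untransformed TPM, whereas limma borrows the spread from other genes on a log scale.

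**Figure D4:**
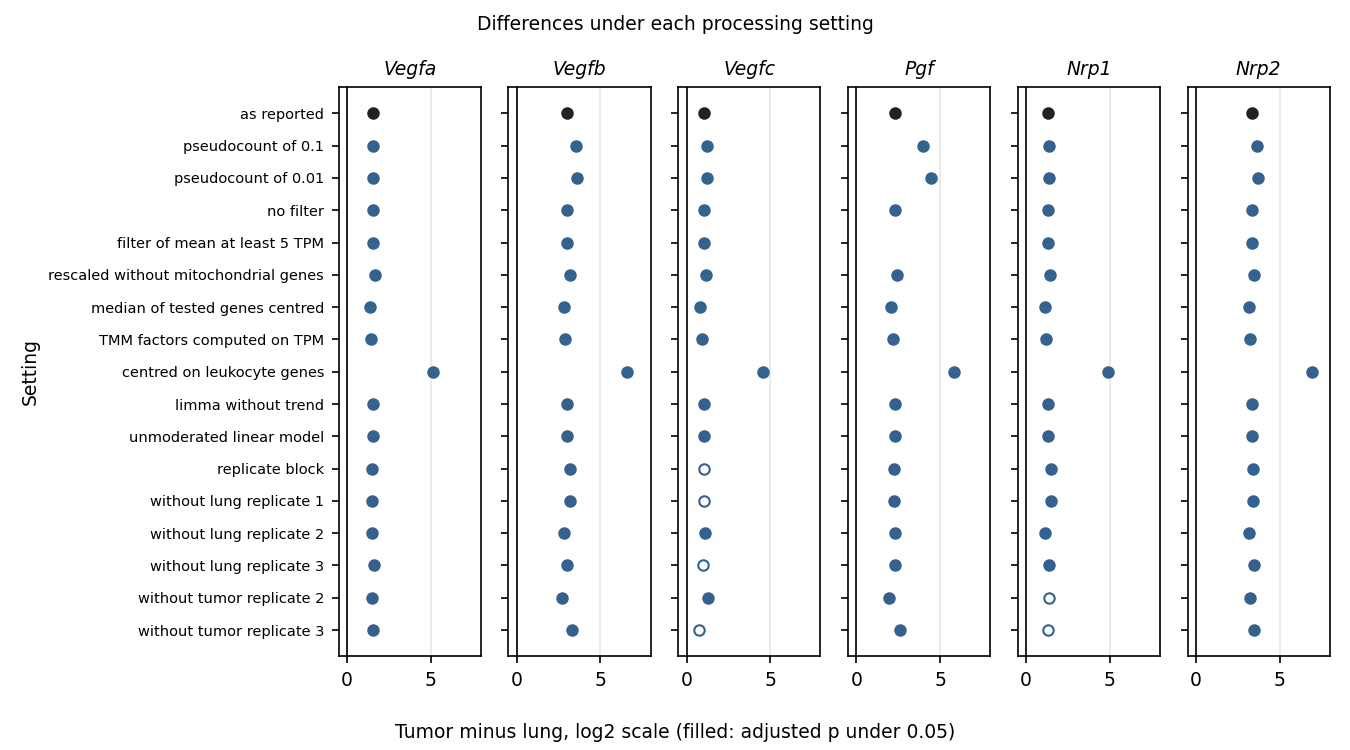
Tumor minus lung difference of each gene on the log2 scale, 1 panel per gene and 1 line per processing setting, with filled points for an adjusted p under 0.05. All points lie right of 0, and the open points are Vegfc in 4 settings and Nrp1 in 2.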

How the data were processed

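RNA of sorted cells was sequenced as paired reads, at a stated 20000000 paired reads per library from at least 2000000 cells. Per the labels and the design text, the authors ran Salmon 0.9.1 on GENCODE mouse M24 and deposited TPM. Salmon assigns reads shared by similar transcripts probabilistically. TPM values sum to a fixed total, so abundant transcripts that rise push the rest down. The authors' deposited p-values and false discovery rates were only quoted.

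Of 55276 rows, 26 with spreadsheet dates for symbols were left out. Tumor and lung were compared with limma 3.58.1 in R 4.3.3 on log2(TPM + 1) with an intensity trend. All 5 libraries entered, and 16387 genes averaging 1 TPM or more were tested. Tests were two-sided. The fit was tested on simulated data. The tissue label gave the groups and the titles gave the replicate numbers. The same numbers in both tissues give 2 pairs, and nothing in the labels says that a number marks a shared animal. Across libraries, Pearson r of log2(TPM + 1) over genes was 0.892 to 0.901 within lung, 0.917 in tumor and 0.522 to 0.679 between. The mitochondrial genome gave 2.67% to 4.40% of TPM per lung library, and 9.01% and 15.1% per tumor library.

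Members and lists were chosen with earlier results of these data known. Named genes are the members, tested VEGF receptors, semaphorins and plexins, the 4 smallest p-values in each other list, and the 3 nearest profiles per member. Vegfd, Plxna4, Adamts3, Adamts1, Hpse, Slc2a1, Ankrd37, Angpt2, Fgf2, Pdgfd and Prok2 fall outside that rule and were named after their values were seen. So were Siglech, Bst2, Tcf4, Cd3g, Cd3d, Cd3e, Foxp3, Ccr9, Trac, Cd4, Tek, Tie1, Emcn, Erg, Pdgfra and Rgs5. Alternatives changed the pseudocount, filter, scaling, variance model, replicate block and libraries. Coordinates are those of GENCODE M21 and promoters those of RefSeq, both GRCm38. Proteins were not analysed here.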

Additional observations from a re-analysis of the deposited data

How the results depend on the processing

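Each member kept its direction in every setting tried, 15 for Pgf and 16 for the others. Vegfa, Vegfb, Pgf and Nrp2 also kept their calls there, with adjusted p up to 0.0318, 0.0300, 0.0363 and 0.0297. Vegfc lost its call in the fit with a replicate block, which takes the numbers in the titles as pairs (1.02, adjusted p = 0.0948), and leaving out 1 library gave 0.76 to 1.29. Nrp1 lost it without either tumor library, with 1.14 to 1.46 over the left-out libraries. The block changed no other member's call, and over all genes it left 7111 called of 9609. With it the other angiogenic ligands had 4 higher and 1 lower, against 7 and 2. The numbers pair only 2 libraries per tissue, and tumor 2 minus 3 and lung 2 minus 3 correlated at r = 0.051 across genes. Members called higher numbered 5, 6, 5, 5 and 4 without lung replicates 1, 2 and 3 and tumor replicates 2 and 3.

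Without 1 library, 3454 to 4669 genes were called higher and 2831 to 4179 lower, against 5178 and 4431 with all. Centred on the 10 pan-leukocyte genes, 14193 were called higher and 73 lower. There the members stood at 5.11 (Vegfa), 6.57 (Vegfb), 4.59 (Vegfc), 5.86 (Pgf), 4.89 (Nrp1) and 6.92 (Nrp2), or 1.01 to 3.33 relative to the median gene. Signs turned in that setting for Flt1 (2.64), Kdr (0.60), Flt4 (3.30), Sema3g (0.37), Plxnd1 (3.05), Furin (2.69), Pcsk7 (2.19), Mmp9 (0.53), Hpse (3.32), Hgf (1.26) and Prok2 (1.42). Of these, Kdr, Sema3g, Mmp9 and Hgf were not called there (limma, adjusted p from 0.117 to 0.658). Relative to the median gene all of these genes stayed below 0, from -0.26 (Hpse) to -3.21 (Sema3g). The median gene stood at 0.018 as reported, and at 0.13 without mitochondrial genes, -0.18 with medians centred and -0.082 with TMM factors. Of 192 recomputed pathway counts 162 stayed within 1.5 times. The cause of lost calls was not tested. The design holds 2 tumor libraries, and TPM without counts allows no detection limit.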
